A study of Oryza sativa with 36 samples.

Results

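Leaf sheaths of the near isogenic line (NIL) B1415 late in feeding by the brown planthopper (BPH) were compared with those of its recurrent parent RP at the same stage. The members are the 6 libraries that the labels give as B1415_late and RP_late, 3 of each, out of 36 libraries in 12 groups. B1415 carries the resistance genes BPH14 and BPH15 in the background of RP, the indica rice 'Wushansimiao', which the titles call WT. Seedlings received 8 nymphs each, and a late library pooled plants infested for 24, 48 or 72 h, so the times within the stage cannot be separated. Each of the 3 biological replicates of a group held leaf sheaths of 15 seedlings. Each genotype was represented by 1 line, so a difference between lines cannot be assigned to a resistance gene rather than to other DNA brought in with it. The early stage (B1415_early and RP_early, 3, 6 and 12 h pooled) and the non-infested stage (B1415_0 and RP_0), again with 3 libraries a group, were used to follow the late differences. Late libraries of the NILs B14, which carries BPH14 alone, and B15, which carries BPH15 alone, are set beside them. Both NILs have RP as recurrent parent, and B14_late and B15_late hold 3 libraries each, infested and pooled like B1415_late. The labels' list of sampling times lacks the 6 h point that their own grouping and the methods give for the early stage.

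BPH is a phloem feeder that pierces the leaf sheath with its stylets and draws sap from the sieve tubes. BPH14 encodes a nucleotide-binding leucine-rich repeat protein, an intracellular receptor class, and BPH15 a lectin receptor kinase at the plasma membrane. Plants answer such feeding with protease inhibitors, lectins, chitinases and glucanases, which act on proteins or cell wall polymers of attackers and are under the control of hormones such as jasmonate and salicylate.

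Total counts ranged from 10601967 to 17931968 in the 6 libraries. The lowest total was that of RP_late-2 and was also the lowest of the 36 libraries. In the study's own summary, RP_late-2 also had the lowest share of mapped reads among the 6. Between 28869 and 29860 of the 38978 listed genes had at least 1 count. Levels are given as CPM, counts per fixed number of library counts after scaling by the trimmed mean of M values (TMM) over the 36 libraries. Entries with ENSRNA identifiers summed to 2785, 758 and 762 CPM in B1415_late and to 1820, 5772 and 910 CPM in RP_late. RNA composition thus varied between replicates within both groups. The 3 loci fixed as markers of green cells summed to between 7857 and 9287 CPM in the B1415_late libraries, against 7561 to 8567 CPM in the RP_late libraries. For 3 loci fixed as markers of secondary walls the sums were 480 to 571 CPM in B1415_late, against 532 to 622 CPM in RP_late. No marker locus was at 0 in any of the 6 libraries and none was called different, so the green, vascularised tissue of the label was present on both sides. In bulk tissue, fewer cells of a type and less RNA per cell cannot be told apart.

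One library went against its label at a locus that separates the lines. Os03g0848700, on chromosome 3, had 42.002 and 36.1 CPM in B1415_late-1 and B1415_late-2 and 0 counts in the library labelled B1415_late-3, against 0 counts in each of the 3 RP_late libraries. In the 6 other B1415 libraries, non-infested or early, it lay between 30.1 and 42.1 CPM. The B14_late libraries held 30.1 to 40.2 CPM, the libraries B15_late-1 and B15_late-2 held none, and the library labelled B15_late-3 held 37.5 CPM. Whether the libraries labelled B1415_late-3 and B15_late-3 carry each other's labels was not tested, and the B1415_late and B15_late values hold only as far as the labels do. All libraries were kept under their labels, and the comparison was made with the library labelled B1415_late-3 (6 libraries) and without it (5 libraries). Among the late libraries of all 4 lines, the one closest to the library labelled B1415_late-3 was B15_late-1 (rank correlation 0.988 across genes). The one closest to B1415_late-2 was the library labelled B15_late-3 (0.989), and the one closest to B1415_late-1 was B1415_late-2 (0.988). Genes are not independent replicates, and these correlations describe likeness only.

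Differentially expressed genes (DEGs) were those with an absolute log2 fold change above 1 and, in the quasi-likelihood test of edgeR, a p below 0.05 before adjustment. Fold changes are B1415 over RP. With 6 libraries, 535 of 24240 genes tested were DEGs (2.21%), of which 418 were higher in B1415_late (1.72%) and 117 lower (0.483%). Without the library labelled B1415_late-3, 1192 of 24553 genes were DEGs (4.85%), 620 higher (2.53%) and 572 lower (2.33%). After Benjamini-Hochberg adjustment over all genes tested, 8 DEGs remained with 6 libraries (0.033%), 3 higher (0.0124%) and 5 lower (0.0206%). With 5 libraries 791 remained (3.22%), 349 higher (1.42%) and 442 lower (1.8%). Higher genes outnumbered lower genes with 6 libraries at the unadjusted p, and the directions were closer to even with 5. The B1415_late and RP_late libraries did not overlap in 18.7% of all genes tested with 6 libraries and in 45.2% with 5. Groups with fewer libraries separate more often by chance, so these shares cannot be compared directly.

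**Figure D1:**
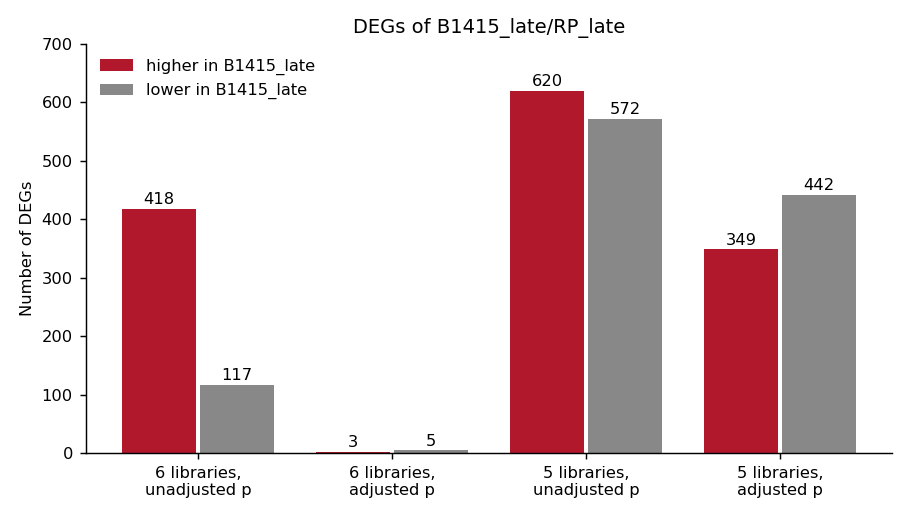
Number of DEGs (vertical axis) that were higher (red) or lower (grey) in B1415_late than in RP_late, with 6 libraries and with 5, at the unadjusted and at the adjusted p. Leaving out the library labelled B1415_late-3 took the lower genes to 572, against 117 with it, and the higher genes to 620, against 418.

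The 6-library and 5-library comparisons shared 472 DEGs, which were 88.2% of the 535 and 39.6% of the 1192, and all 472 had the same direction. Of the 620 higher DEGs of the 5-library comparison, 368 (59.4%) were also DEGs with 6 libraries. Of its 572 lower DEGs, 104 (18.2%) were. All 8 genes that passed the adjusted test with 6 libraries passed it with 5.

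The left-out library took no part in the calls made with 5 libraries, so its own level in those genes could be set beside both groups. The RP_late libraries did take part. The calls favour genes with extreme RP_late levels, which places any other library more often on the side of B1415_late-1 and B1415_late-2. The same shares over all genes tested were not determined, so the counts are a description only. In 271 of the 349 genes called higher at the adjusted p, it lay above all 3 RP_late libraries, on the side of B1415_late-1 and B1415_late-2. In 68 it lay within the RP_late range and in 10 below it. In the 442 genes called lower, it lay below all 3 RP_late libraries in 132, within their range in 145 and above them in 165. In the higher genes it was at or past the level of B1415_late-1 or -2 in 69 of 349, and its median position was 0.58 of the way from RP_late to those libraries. In the lower genes it was so in 30 of 442, and the median position was -0.036.

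**Figure D2:**
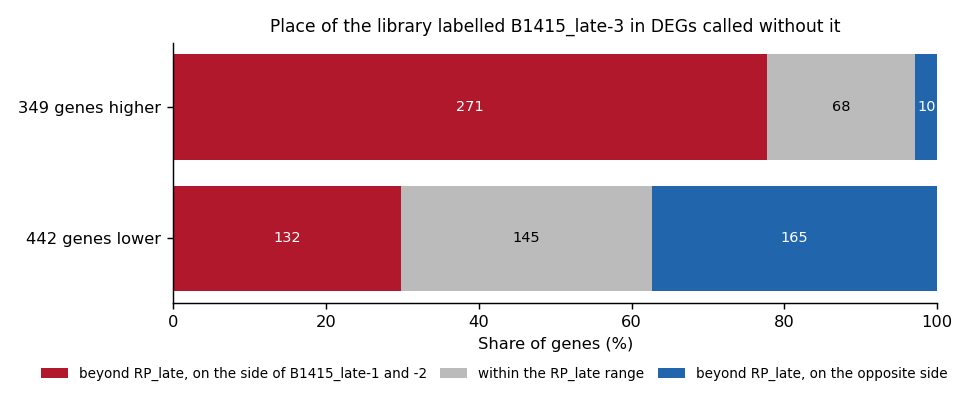
Share of genes (horizontal axis, %) by the place of the library labelled B1415_late-3 relative to the 3 RP_late libraries, for the 349 genes higher and the 442 genes lower in B1415_late-1 and -2 at the adjusted p. Numbers in the bars count genes; 271 of the higher genes but 132 of the lower genes lay on the side of the other B1415_late libraries.

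Some of the largest differences between the lines did not depend on that library. Os05g0335100, a gene on chromosome 5 annotated with a saposin-like domain, a fold that binds lipids in animal saposins, had 40.03, 36.4 and 37.3 CPM in B1415_late, against 0.536, 0.464 and 0.661 CPM in RP_late. The groups were far apart in every library, and the log2 fold change was 6.08 ± 0.127 (SE, n = 3 each) with an adjusted p of 2.02e-07. With 5 libraries it was 6.09 ± 0.139, with an adjusted p of 5.11e-11. This gene and RBBI2-1 (Os01g0124000, a protease inhibitor gene) were also assayed by qRT-PCR in the study. The primers are shown because they are the designed sequences for a pair of genes that were higher in B1415_late both with 6 libraries and with 5.
Os05g0335100 forward: ctcggcctcgaatttcgtct
Os05g0335100 reverse: aggccaagcttgtatctccc
Os01g0124000 forward: gcgacatggtgaattcgtcg
Os01g0124000 reverse: acacacgcagactgatcgtt

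Chromosome 4, with 2116 of the 24240 genes tested, held 4 of the 8 genes past the adjusted test with 6 libraries. Os04g0202700 had 8.84, 7.57 and 6.38 CPM in B1415_late, against 0.417, 0.0928 and 0.367 CPM in RP_late, a log2 fold change of 4.58 ± 0.435 (adjusted p = 0.00110). Os04g0200400 went the other way, with 0, 0.106 and 0 CPM in B1415_late, against 18.0, 20.8 and 22.3 CPM in RP_late (adjusted p = 1.05e-05). In both genes the library labelled B1415_late-3 lay with B1415_late-1 and B1415_late-2. Os04g0196600 had 10.9, 11.4 and 11.5 CPM in B1415_late, against 29.6, 30.6 and 26.5 CPM in RP_late (log2 fold change -1.34 ± 0.0675, adjusted p = 0.00196). Os04g0339800 was also lower, by a log2 fold change of -2.87 (adjusted p = 0.0389). Of the 13 loci listed between Os04g0200000 and Os04g0203000, 9 were tested and 4 were DEGs with 6 libraries, against 2.21% of all genes. The other 2 of these were Os04g0202800, with 2.15, 1.54 and 2.47 CPM in B1415_late against 0.179, 0.557 and 0.661 CPM in RP_late, and Os04g0201000 (log2 fold change 1.22, adjusted p = 0.305). The annotation used here names no lectin receptor kinase among these loci.

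The remaining genes past the adjusted test with 6 libraries were Os10g0540800, Os03g0349600 and Os05g0406550. Os10g0540800 had 15.7, 13.7 and 12.5 CPM in B1415_late, against 5.42, 5.48 and 6.17 CPM in RP_late (log2 fold change 1.31 ± 0.111, adjusted p = 0.0238). Os05g0406550, annotated with a domain of unknown function, had 0.0597, 0 and 0 CPM in B1415_late, against 1.19, 1.21 and 1.69 CPM in RP_late. With 5 libraries the log2 fold change of Os10g0540800 was 1.38 and that of Os04g0339800 was -3.05.

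**Figure D3:**
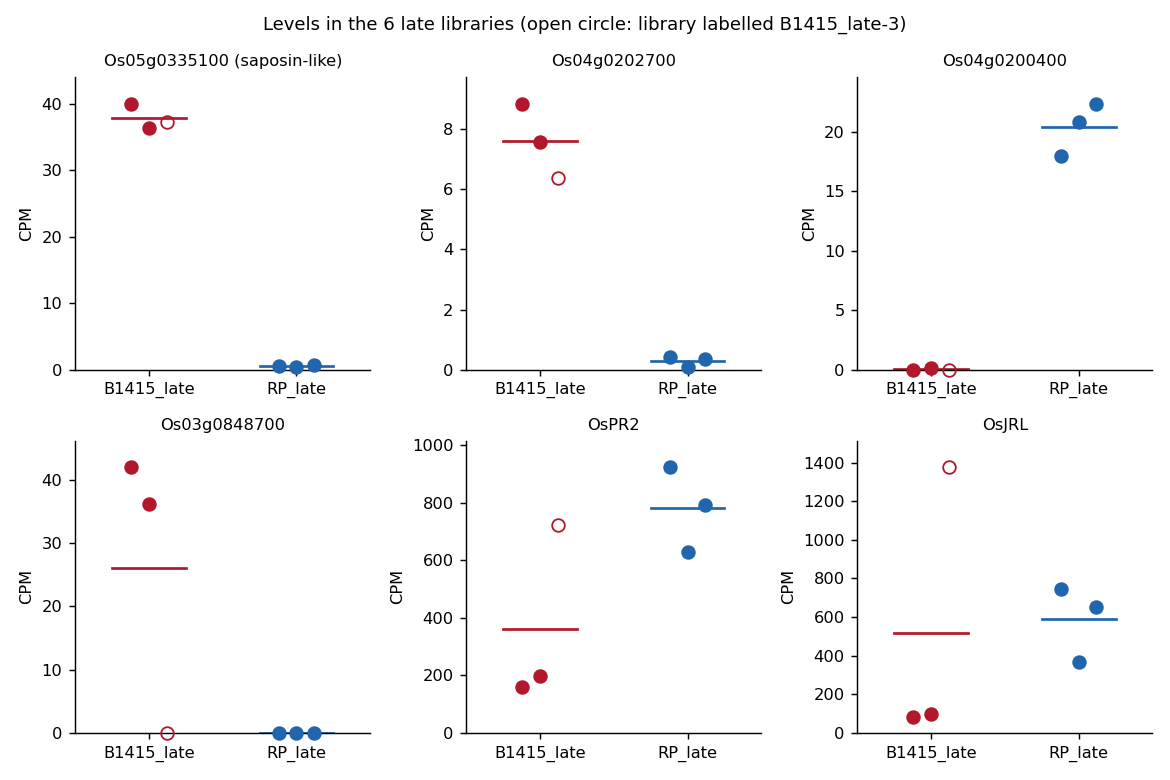
Level (CPM, linear axes that start at 0) of 6 genes in each B1415_late library (red) and each RP_late library (blue), with the group mean as a line and the library labelled B1415_late-3 as an open circle. In Os05g0335100, Os04g0202700 and Os04g0200400 the open circle lies with the other B1415_late libraries; in Os03g0848700 it lies at 0 with RP_late, in OsPR2 it lies within the RP_late range, and in OsJRL above it.

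In all, 8 tested genes, Os03g0349600 among them, had no count in any B1415_late library and were expressed in RP_late. They passed the filter on low counts only through RP_late, so their number is no evidence of a preference. All 8 were also at 0 in the 6 other B1415 libraries and in the 3 B14_late libraries, and 6 were at 0 in the B15_late libraries. Os02g0216300 had 10.2, 0.835 and 9.99 CPM in RP_late, so that B1415_late was at least 38.9-fold lower on the mean when 3 counts per library are taken as the floor (0.181 CPM). This gene averaged 21.6 CPM in RP_0 and was at 0 in RP_early, so it was not steady within RP either. Os06g0147100 carries the same annotation as Os02g0216300, and counts of the pair may be shared between copies. Os03g0349600, a conserved hypothetical gene, had 2.03, 1.67 and 1.91 CPM in RP_late, at least 10.3-fold above the floor. Os02g0590400, of the lecithin:cholesterol acyltransferase family of lipid-modifying enzymes, had 1.19, 2.60 and 0.882 CPM in RP_late, after 20.1 CPM on average in RP_0.

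For the loci from Os03g0820000 onward on chromosome 3, 2 of 261 tested genes were higher with 6 libraries (0.766%, against 1.72% of all genes) and 1 was lower (0.383%, against 0.483%). With 5 libraries, 6 of 265 were higher (2.26%, against 2.53%) and 13 were lower (4.91%, against 2.33%). In the interval from Os04g0100000 to Os04g0300000 on chromosome 4, 13 of 296 tested genes were higher with 6 libraries (4.39%) and 4 were lower (1.35%). With 5 libraries, 16 of 303 were higher (5.28%) and 9 lower (2.97%). The median log2 fold change was 0.03 in the chromosome 4 interval and 0.01 over all genes tested with 6 libraries. The chromosome with the highest share of DEGs with 6 libraries was chromosome 4 (2.79%), and chromosome 12 had the highest share with 5 (6.07%).

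Os03g0848700 is described by its levels only, because its absence was the reason to leave out the library labelled B1415_late-3. With 6 libraries it was not tested, since fewer than 3 libraries reached the minimum count. Os04g0173800, annotated as a lectin precursor (agglutinin) of the carbohydrate-binding kind, had 1.08, 1.32 and 0.783 CPM in B1415_late, against 0, 0.0928 and 0 CPM in RP_late (adjusted p = 8.64e-04 with 5 libraries and 0.0916 with 6). Of the 12 higher genes with the largest fold change with 5 libraries, 8 remain beside Os03g0848700, Os05g0335100, Os04g0202700 and this lectin gene. They are hypothetical or not annotated here, and Os10g0167401, with 2.21, 1.64 and 1.08 CPM in B1415_late against 0.298, 0.371 and 0.441 CPM in RP_late, held the highest level among them in any B1415_late library. The lectin gene and these 8 genes passed the filter on low counts only through B1415_late, so their direction is no evidence of a preference. Among the 12 lower genes, Os02g0186100 and Os11g0255300 were those in which the library labelled B1415_late-3 lay apart from the other B1415_late libraries. Os02g0186100 had 0.179, 0.635 and 8.79 CPM in B1415_late, against 18.3, 5.94 and 14.4 CPM in RP_late, and Os11g0255300 had 0, 0 and 3.37 CPM in B1415_late, against 1.97, 0.557 and 2.65 CPM in RP_late.

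Several annotated genes were lower in B1415_late-1 and B1415_late-2 than in RP_late, and most of them were not lower in the library labelled B1415_late-3. In OsGA2ox8 and OsTIP4 that library also lay below the RP_late libraries. OsPR2 (Os05g0375400), a beta-glucanase precursor of the kind that cuts callose and fungal glucans, had 160, 198 and 722 CPM in B1415_late, against 924, 630 and 793 CPM in RP_late. Its level in the library labelled B1415_late-3 lay inside the RP_late range, while the other B1415_late libraries lay far below it. The log2 fold change was -2.12 ± 0.223 with 5 libraries (adjusted p = 1.01e-06) and -1.11 ± 0.698 with 6, where the unadjusted p was 0.0414 and the adjusted p 0.362. OsJRL (Os01g0348900), a jacalin-related mannose-binding lectin annotated for salinity tolerance, had 83.5, 98.4 and 1376 CPM in B1415_late, against 747, 369 and 650 CPM in RP_late. Here the library labelled B1415_late-3 lay above all RP_late libraries and the 2 others below them. The log2 fold change was -2.68 ± 0.332 with 5 libraries (adjusted p = 4.43e-06) and -0.17 ± 1.35 with 6 (adjusted p = 0.950). OsEnS-40 (Os02g0586900) had 4.66, 4.29 and 91.8 CPM in B1415_late, against 69.8, 37.2 and 56.1 CPM in RP_late, a log2 fold change of -3.60 with 5 libraries and -0.70 with 6. OsGA2ox8, an enzyme of the family that inactivates gibberellins, was lower under both, with 2.27, 3.65 and 6.50 CPM in B1415_late against 13.7, 7.80 and 10.6 CPM in RP_late (adjusted p = 2.69e-04 with 5 libraries and 0.180 with 6). OsTIP4, similar to a tonoplast aquaporin, was likewise lower under both, with 3.11, 4.61 and 5.78 CPM in B1415_late against 12.4, 7.52 and 8.74 CPM in RP_late (log2 fold change -1.09 with 6 libraries and -1.30 with 5). OsEnS-58 (Os03g0826900) had 24.4, 28.5 and 132 CPM in B1415_late, against 128, 79.8 and 126 CPM in RP_late, and was called with 5 libraries only (log2 fold change -2.06). OsJRL, OsEnS-40, OsEnS-58, OsTIP4 and OsGA2ox8 were named after their values had been seen.

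Bowman-Birk inhibitors, small proteins that block trypsin-like and chymotrypsin-like proteases, split within 1 gene family. Of 8 annotated members, 7 were tested. With 5 libraries 2 were higher (28.6%, against 2.53% of all genes) and 3 lower (42.9%, against 2.33%). All 5 passed the adjusted test. With 6 libraries the same 2 were higher (28.6%, against 1.72% of all genes) and none was lower. The members are those that the study's own tables annotate, and those tables were chosen on these samples, so the shares are not independent evidence. The median log2 fold change of the 7 was 0.35 with 5 libraries and 0.40 with 6, and 0.01 over all genes tested in each. RBBI2-1 had 45.3, 61.9 and 27.5 CPM in B1415_late, against 20.9, 13.5 and 19.1 CPM in RP_late. Every B1415_late library was above every RP_late library, and the log2 fold change was 1.34 ± 0.390 with 6 libraries (adjusted p = 0.133) and 1.59 ± 0.294 with 5 (adjusted p = 2.06e-05). Os01g0127600, annotated as similar to the inhibitor D-II, followed the same order, with 25.7, 31.5 and 14.0 CPM in B1415_late against 13.1, 9.93 and 10.3 CPM in RP_late.

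The 3 lower members were the RBBI3 genes. RBBI3-1 had 86.5, 99.3 and 381 CPM in B1415_late, against 254, 145 and 206 CPM in RP_late (log2 fold change -1.11 with 5 libraries, adjusted p = 4.73e-04, and -0.09 with 6). RBBI3-3 had 16.3, 22.1 and 127 CPM in B1415_late, against 65.6, 40.1 and 54.6 CPM in RP_late (-1.46 with 5 libraries and 0.05 with 6). RBBI3-2 had 5.80, 8.47 and 54.5 CPM in B1415_late, against 27.2, 15.9 and 23.7 CPM in RP_late (-1.63 and 0.04). In all 3 RBBI3 genes the library labelled B1415_late-3 was the highest of the 6, and B1415_late-1 and B1415_late-2 were the lowest. RBBI2-2, with 174, 241 and 137 CPM in B1415_late against 127, 97.6 and 106 CPM in RP_late, passed the adjusted p but not the fold limit with 5 libraries. IAI2 was the most abundant member, with 446, 451 and 496 CPM in B1415_late against 428, 274 and 360 CPM in RP_late, and was not called. The locus numbers of the RBBI genes lie close together on chromosome 1 and the genes are of 1 family, so counts may be shared between them where sequences are alike.

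**Figure D4:**
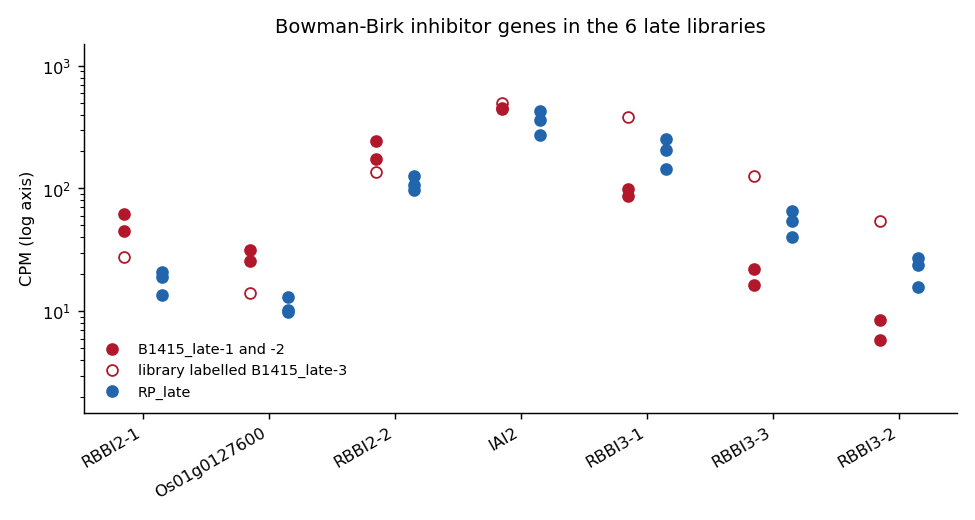
Level (CPM, log axis) of the 7 tested Bowman-Birk inhibitor genes in each B1415_late library (red) and each RP_late library (blue), with the library labelled B1415_late-3 as an open circle. The open circle is the lowest red point for RBBI2-1, Os01g0127600 and RBBI2-2 and the highest of all 6 points for the 3 RBBI3 genes.

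Other defence families held few tested members. The lists hold only genes that the study's own tables annotate, and those tables were chosen on these samples, so the counts are not independent evidence of a direction. Beside each list stand the shares of all genes given above. Of 4 annotated chitinases, enzymes that cut chitin, 3 were tested. Cht9 was higher, with 2.21, 5.40 and 4.22 CPM in B1415_late against 1.01, 1.02 and 1.25 CPM in RP_late (log2 fold change 1.86 with 6 libraries and 1.82 with 5, adjusted p = 0.126 and 0.00526). The class III homologue Os11g0701500 had 0.358, 0.900 and 6.68 CPM in B1415_late against 4.29, 2.78 and 3.82 CPM in RP_late, and was lower with 5 libraries only. Cht10 was not called. Of the 3 beta-1,3-glucanases, OsPR2 was the 1 called. Of 3 genes for pathogenesis-related proteins of the PR1 kind, OsPR1b was lower, with 0.538, 0.318 and 0.422 CPM in B1415_late against 1.73, 1.58 and 1.1 CPM in RP_late (log2 fold change -1.77 with 6 libraries and with 5, adjusted p = 0.146 and 0.0218). OsOPR10, similar to 12-oxo-phytodienoic acid reductases, had been drawn into that list by its symbol and was not called. None of 13 annotated class III peroxidases, which use hydrogen peroxide at the cell wall, was a DEG in either comparison, and their median log2 fold change was 0.06 with 6 libraries and 0.10 with 5.

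Among 13 tested genes of 19 annotated with a nucleotide-binding domain of resistance proteins, rNBS41 was the 1 DEG. It had 0.478, 0.847 and 0.482 CPM in B1415_late, against 1.49, 2.04 and 1.25 CPM in RP_late (log2 fold change -1.35 with 6 libraries, adjusted p = 0.221). Of 5 WRKY transcription factors, none was called with 6 libraries. With 5 libraries OsWRKY10 was lower (log2 fold change -1.26, adjusted p = 0.00612), with 1.73, 2.75 and 8.01 CPM in B1415_late against 6.37, 4.18 and 5.66 CPM in RP_late, and Os01g0201250 was higher without passing the adjusted test. Of 4 genes of nicotianamine synthesis and iron, nicotianamine being a chelator of iron in the phloem, OsNAS1, NAS2 and Os02g0599500 were lower with 5 libraries, and OsNAS1 and Os02g0599500 passed the adjusted test. OsNAS1 had 0.239, 0.106 and 0 CPM in B1415_late, against 0.953, 1.30 and 0.514 CPM in RP_late, and in these 3 genes the library labelled B1415_late-3 lay below the RP_late libraries like the others. All 4 genes of this list were tested with 5 libraries, but only 2 with 6. OsNAS1 and Os02g0599500 passed the filter on low counts only through RP_late, so their direction is no evidence of a preference. Oshsp16.9B, a small heat shock chaperone, was lower with 6 libraries (log2 fold change -1.35, adjusted p = 0.224) and with 5 (-1.80, adjusted p = 0.00566). The 6 tested genes of replication histones and cyclins, the 3 LEA and dehydrin genes, the 3 NAC factors and the 4 cytosolic ribosomal protein genes held no DEG. Of 4 flavonoid-related genes, NOMT (Os12g0240900), which makes the phytoalexin sakuranetin, was lower with 6 libraries (log2 fold change -1.18, adjusted p = 0.376), and none was a DEG with 5. NOMT had 0.359, 1.11 and 0.301 CPM in B1415_late, against 0.953, 1.49 and 1.76 CPM in RP_late, so that the groups overlapped, and it was named after its values were seen.

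Candidate genes named in the study were chosen on these samples, so their direction is not independent evidence. Of 21 such genes, 18 were tested, and 7 were DEGs with 6 libraries (against 2.21% of all genes) and 9 with 5 (against 4.85%), and 7 passed the adjusted test with 5. Higher in both were Os05g0335100, RBBI2-1, Cht9, OsGRP5, Os05g0181100 and Os04g0585900, and lower in both was Os02g0599500. Os05g0335100 was the only candidate past the adjusted test with 6 libraries. Os05g0181100 did not pass it with 5 either (adjusted p = 0.114), and in Os04g0585900 the groups overlapped with 6. OsGRP5, similar to RNA-binding proteins, had 3.53, 4.45 and 2.53 CPM in B1415_late, against 2.26, 0.928 and 1.25 CPM in RP_late. WAK112, a wall-associated kinase annotated as a negative regulator of blast resistance, had 82.6, 84.6 and 146 CPM in B1415_late, against 134, 216 and 163 CPM in RP_late, and was lower with 5 libraries (log2 fold change -1.02 ± 0.200, adjusted p = 4.10e-04) but not with 6 (-0.70 ± 0.333, adjusted p = 0.273). LTPL163 was lower with 5 libraries at the unadjusted p only (log2 fold change -1.50, adjusted p = 0.145). POX8.1, a peroxidase, had 10.9, 12.4 and 8.67 CPM in B1415_late, against 13.2, 8.63 and 9.85 CPM in RP_late, so that the groups overlapped. OsAGO14, Os12g0639200 and OsLEA33 were too low to be tested.

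Many of the higher genes that carry an annotation here are annotated only as hypothetical. Of 410 genes annotated only as hypothetical, 298 were tested with 6 libraries, and 129 were higher (43.3%) and none lower. With 5 libraries 153 of 319 were higher (48.0%) and 2 lower (0.627%). Among tested genes with any other annotation, 31 of 908 were higher (3.41%) and 27 lower (2.97%) with 6 libraries, and 45 of 938 higher (4.80%) and 70 lower (7.46%) with 5. The summed level of the hypothetical genes was 1239, 1171 and 1091 CPM in B1415_late, against 585, 763 and 756 CPM in RP_late, and the groups did not overlap. The annotation came from the study's lists of DEGs, so the shares describe the lists and not the genome. The strand setting of the counts is not stated in the sources used here, and reads of a hypothetical locus that overlaps another gene cannot be told apart from those of its neighbour. Among higher genes with an annotation, OsJAC1, similar to a jasmonate-induced protein and named after its values were seen, had 9.62, 11.2 and 10.8 CPM in B1415_late, against 4.94, 5.75 and 4.19 CPM in RP_late (log2 fold change 1.11 ± 0.145 with 6 libraries, adjusted p = 0.0916). OsDT11 had 3.23, 6.41 and 4.34 CPM in B1415_late, against 2.20, 1.58 and 1.91 CPM in RP_late, and Os02g0622350, similar to a root abundant protein, had 4.12, 3.92 and 3.85 CPM in B1415_late, against 1.13, 1.95 and 2.06 CPM in RP_late. In these 3 genes every B1415_late library lay above every RP_late library.

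Whether the late differences were already present before or early in feeding was asked of libraries that the late comparison did not use. B1415_0/RP_0 held 810 DEGs among 23685 genes (3.42%) and B1415_early/RP_early 1227 among 24499 (5.01%). Of the 349 higher genes of the 5-library comparison at the adjusted p, 319 were tested in B1415_0/RP_0, and 172 (53.9%) were DEGs there in the same direction, against 2.85% of all genes. In B1415_early/RP_early 233 of 336 (69.3%) were, against 4.49% of all genes. Of the 442 lower genes, 25 of 293 (8.53%) were lower in B1415_0/RP_0, against 0.57% of all genes, and 44 of 353 (12.5%) in B1415_early/RP_early, against 0.518%. For the DEGs found with 6 libraries, the shares were 52.6% and 64.1% for higher genes and 22.2% and 32.9% for lower genes, non-infested and early in that order.

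**Figure D5:**
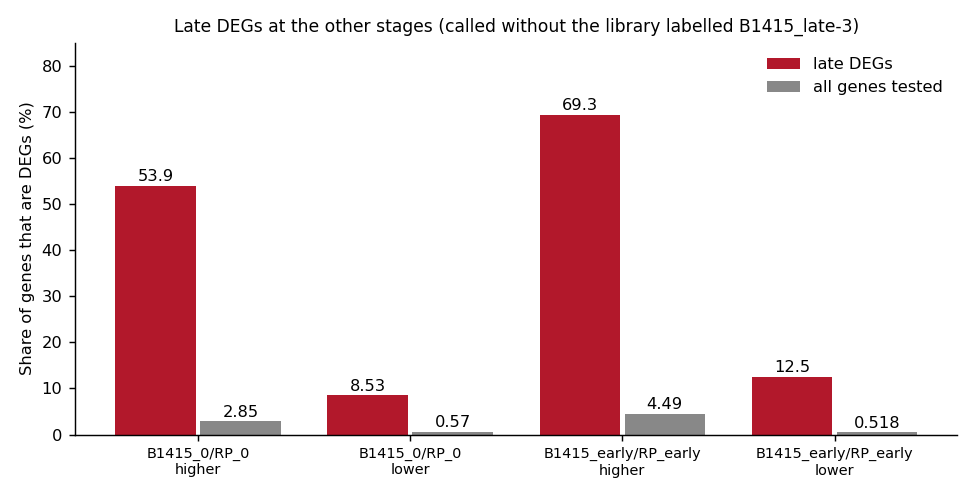
Share (%) of the late DEGs called at the adjusted p without the library labelled B1415_late-3 that were DEGs in the same direction in B1415_0/RP_0 and in B1415_early/RP_early (red), beside the share of all genes tested there (grey). The higher genes reach 53.9% and 69.3%, the lower genes 8.53% and 12.5%.

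An interaction term of line and stage asked whether the line difference itself changed. From non-infested to late feeding it passed the adjusted test in 7 of 25100 genes with 12 libraries (0.0279%), all of them shifted towards B1415. Without the library labelled B1415_late-3 it passed in 1181 of 25459 genes (4.64%), 420 shifted towards B1415 (1.65%) and 761 towards RP (2.99%). From early to late feeding it passed in 55 of 25316 genes (0.217%), 41 shifted towards B1415 (0.162%) and 14 towards RP (0.0553%), and without that library in 1164 of 25797 (4.51%), 582 in each direction (2.26%). At an unadjusted p below 0.05 there were 2854 and 5270 genes for the first and 2756 and 4682 for the second. Of the 791 genes called late with 5 libraries at the adjusted p, 210 passed this test against the non-infested stage. Of the 534 tested among the 535 DEGs with 6 libraries, called at the unadjusted p, 2 did. The call rules differ, so these numbers cannot be compared directly. Both sets were chosen on the same late libraries, so the numbers are a description.

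OsPR2 averaged 179 ± 27.2 CPM in B1415_late-1 and B1415_late-2 and 782 ± 147 CPM in RP_late (SD, n = 2 and 3). Early in feeding it averaged 100 ± 9.20 CPM in B1415 and 263 ± 47.7 CPM in RP, and in non-infested plants 19.3 ± 2.99 CPM in B1415 and 21.5 ± 1.31 CPM in RP (n = 3 each). A difference before feeding was not called (log2 fold change -0.14, adjusted p = 0.520), and the early one was (log2 fold change -1.37, adjusted p = 3.47e-08). OsJRL was already lower in non-infested B1415, at 28.0 ± 3.34 CPM against 67.9 ± 5.94 CPM in RP (log2 fold change -1.26, adjusted p = 1.92e-06), and early in feeding it was at 32.6 ± 2.60 CPM in B1415 and 47.1 ± 6.77 CPM in RP. RBBI2-1 averaged 3.92 ± 1.02 CPM in B1415_0 and 2.04 ± 0.191 CPM in RP_0. It was higher in B1415 early in feeding, at 37.1 ± 3.15 CPM against 14.2 ± 1.03 CPM in RP (log2 fold change 1.41, adjusted p = 6.89e-09), while RBBI3-3 was at 14.8 ± 0.111 CPM in B1415 and 25.3 ± 8.23 CPM in RP at that stage. Os05g0335100 was higher in B1415 at every stage, by a log2 fold change of 4.27 before feeding and 6.56 early in feeding, with 45.3 ± 1.73 CPM in B1415_0 against 2.37 ± 0.382 CPM in RP_0 and 37.3 ± 3.48 CPM in B1415_early against 0.393 ± 0.287 CPM in RP_early.

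The lines with 1 resistance gene share the RP_late libraries with this comparison, so their values are given side by side only. Os05g0335100 lay between 42.5 and 46.6 CPM in B14_late and between 33.2 and 40.8 CPM in B15_late, like B1415_late and unlike RP_late. Os04g0202700 held 0.120 to 0.235 CPM in B14_late and 7.08 to 7.66 CPM in B15_late, and Os04g0200400 held 11.7 to 17.6 CPM in B14_late and 0 to 0.0567 CPM in B15_late. At these 2 loci B1415_late was like B15_late. OsPR2 had 901, 782 and 795 CPM in B14_late, and 653, 670 and 181 CPM in B15_late, where the lowest value is that of the library labelled B15_late-3. OsJRL had 1118, 1125 and 1439 CPM in B14_late and 1123, 528 and 90.1 CPM in B15_late, again lowest in the library labelled B15_late-3. RBBI3-3 showed the same order, with 134 to 161 CPM in B14_late and 129, 68.1 and 17.5 CPM in B15_late. In each of these 3 genes the library labelled B15_late-3 had a level near those of B1415_late-1 and -2, whereas the library labelled B1415_late-3 lay near or above the other B15_late libraries.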

How the data were processed

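Leaf sheath RNA of 36 libraries was counted per gene. Per the methods and processing notes, the authors trimmed reads for adapters and quality, aligned them with HISAT2 2.0.4 to IRGSP-1.0 and counted with HTseq. The values the authors deposited are whole-number counts, not normalized, with 1 column per library, and 0 columns were left unassigned. The HTseq version, annotation release and strand setting are not given in the sources used here, and the labels and methods differ in library kit and sequencer.

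The 6 libraries were fitted alone, and again without the library labelled B1415_late-3, in R 4.3.3 with edgeR 4.0.16 (limma 3.58.1). The filter was filterByExpr with a minimum count of 10, the scaling TMM and the test quasi-likelihood. Tested genes that were low in either group passed the filter only through the other group, so their direction is no independent support. P-values were adjusted by the Benjamini-Hochberg method over all genes tested. Standard errors of log2 fold changes come from log2 CPM with a prior count of 2. The change of the line difference between stages was the interaction in 12 libraries, called at an adjusted p below 0.05. Total counts set the precision, and a count of 3 was the floor. Floors cover counting error only, and the errors printed are spread between libraries.

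Alternatives were DESeq2 1.42.0 and its size factors, no filter, the replicate number as a block, a single fit of all libraries, each library left out in turn, and calls at the adjusted p. The steps were tested on simulated data.

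Members, lists and tests were chosen with earlier results of these data known. The genes named are Os03g0848700 and the loci Os04g0200000 to Os04g0203000, the 21 candidates of the study, the 12 higher and 12 lower genes with the largest fold change at the adjusted p with 5 libraries, groups that do not overlap and a mean of at least 1 CPM, every gene past the adjusted p with 6 libraries, and up to 3 members of each gene list. OsJRL, OsEnS-40, OsEnS-58, OsGA2ox8, OsJAC1, Os12g0198700, AP2/EREBP129, OsTIP4, Os01g0268600, OsDT11, Os02g0622350, NOMT and the rest of 2 lists were added after their values were seen. Names and functions came from the part of the study's gene tables at hand, which cover 1583 genes, 918 of them on chromosome 1, and of 29 lists 13 had at least 3 tested members and 9 had none. The primer sequences are those of the study's supplement. Enrichment, qRT-PCR values and protoplast assays were not used here.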

Additional observations from a re-analysis of the deposited data

Results flagged for a closer look

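The change in the line difference between stages was tested as the interaction of line and stage, and the genes named above in which it passed in edgeR (quasi-likelihood test, Benjamini-Hochberg adjusted p below 0.05) are given here with the difference of log2 fold changes (late minus the other stage). With 12 libraries, 7 genes differed from the non-infested stage and 55 from the early stage. Without the library labelled B1415_late-3 the numbers were 1181 and 1164.

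Against the non-infested stage with 12 libraries, Os05g0335100 differed by 1.81. Without the library labelled B1415_late-3 it differed by 1.80, Os12g0198700 by 3.16, Os04g0201000 by 2.27 and Os04g0201900 by 0.962, each shifted towards B1415. Shifted towards RP were OsEnS-58 (Os03g0826900, -4.88), OsEnS-40 (Os02g0586900, -4.03), OsPR2 (Os05g0375400, -1.99), RBBI3-3 (Os01g0124401, -1.62), OsJRL (Os01g0348900, -1.44), Os01g0268600 (-1.38), RBBI3-1 (Os01g0124200, -1.26), AP2/EREBP129 (Os01g0141000, -1.25), NAC95 (Os06g0726300, -1) and Os01g0382400 (-0.930).

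Against the early stage with 12 libraries, Os04g0173800 differed by 7.20 and CLPC2 (Os12g0226900) by -1.39. Os04g0173800 averaged 0.0823 CPM in B1415_early and 0.355 CPM in RP_early, and had 0, 1 and 0 counts in RP_late. It was too low to be tested in B1415_early/RP_early, so the size of its shift rests on few counts, with 12 libraries and without the library labelled B1415_late-3. Without the library labelled B1415_late-3, shifts towards B1415 were found in Os04g0173800 (7.38) and OsGRP5 (Os05g0223300, 1.76). The value of Os03g0848700 (5.24) is no finding, since the library was left out for lacking this gene, the value did not pass with 12 libraries (adjusted p = 0.861), and it depends on the prior count. Shifts towards RP were found in Os02g0599500 (-2.45), OsEnS-40 (-2.41), OsJRL (-2.18), RBBI3-2 (Os01g0124100, -1.77), CLPC2 (-1.41), OsTIP4 (Os01g0232100, -1.22), RBBI3-1 (-0.994), OsLEA9 (Os01g0314800, -0.953), OsJAC1 (Os12g0247700, -0.810), OsPR2 (-0.747), AP2/EREBP129 (-0.715) and OsOPR10 (Os01g0369900, -0.710). Os02g0599500 averaged 0.414 CPM in B1415_early and 0.265 CPM in RP_early and was too low to be tested in B1415_early/RP_early. Its shift rests on few counts and did not pass with 12 libraries (adjusted p = 0.108 in the edgeR interaction test). The part of the library label in the shifts given here was not tested.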

How the results depend on the processing

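The 6-library count of 535 DEGs was 993 without a filter on low counts, which tests 32280 genes, and 8 at the adjusted p. Left-out libraries gave 430 (without RP_late-1) to 1192 (without the library labelled B1415_late-3). The 5-library count of 1192 was 791 at the adjusted p, and left-out libraries gave 945 (without RP_late-1) to 1484 (without RP_late-2). The filter also moved B1415_0/RP_0 (810) to 1523 and B1415_early/RP_early (1227) to 1913, with left-out ranges of 886 to 999 and 1285 to 1487. The 7 interaction genes from before to late feeding were 14 without the filter, 96 with DESeq2 on the same genes and 4 with the replicate block, and left-out libraries gave 2 (without RP_late-1 or RP_0-2) to 1181. They were 3 without RP_late-3, B1415_0-1, B1415_0-2, B1415_0-3 or RP_0-1. The 55 from early to late feeding were 95, 264 and 4 under the same settings, and 0 to 1164, with 0 in edgeR without B1415_late-2, RP_late-1, RP_late-3, RP_early-1 or RP_early-2, and 10, 19, 2, 3 and 8 without B1415_late-1, B1415_early-1, B1415_early-2, B1415_early-3 and RP_early-3. The cause of these shifts was not tested. With DESeq2 in place of edgeR the split of the 5-library DEGs was 442 higher and 520 lower.

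Replicates with the same number did not deviate together in B1415_late/RP_late (correlations -0.248, 0.0937 and 0.0290). These correlations cannot show whether such replicates share more than a number. The replicate block gave 536 DEGs with 6 libraries and 1230 with 5. RBBI3-3 (Os01g0124401) and RBBI3-2 (Os01g0124100) changed sign, from no call at 0.05 and 0.04 with 6 libraries to lower at -1.46 and -1.63 without the library labelled B1415_late-3. Left-out libraries gave up to 0.48 and 0.49 (without B1415_late-1). Among the other named genes no called value changed sign. With 6 libraries, settings that kept every library removed 36 gene calls, mostly at the adjusted p, and added 5, and left-out libraries removed 24 and added 14. With 5 libraries the settings removed 14 calls, and left-out libraries removed 19 and added 6.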
